A study of Caenorhabditis elegans with 2 samples.

Results

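The 129 genes of biotype snRNA in the Ensembl annotation of the Caenorhabditis elegans assembly WBcel235, out of 46926 annotated genes, were examined for regions bound by the transcription factor EYG-1. A region was assigned to a gene when its summit lay within 300 bp of the gene, and genes with no region were kept. The data are chromatin immunoprecipitation sequencing (ChIP-seq) of strain OP443, in which EYG-1 (eyg-1, Y53C12C.1) is fused at its C-terminus to GFP and FLAG. Whole hermaphrodite late embryos were taken 4 hours after synchronization by egg bleaching, and sonicated chromatin was precipitated with an antibody to GFP. The 2 libraries, biological replicates 1 and 3, form 1 group, so there was no second condition to test against. The control library named in the labels was not analysed here, every library carried the transgene, and a whole embryo does not show in which cells a region was bound.

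The small nuclear RNAs are short non-coding RNAs that work, with bound proteins, in the removal of introns from messenger RNA. In nematodes the class also holds the spliced leader RNAs, which give their first bases to the start of many messenger RNAs in trans-splicing: SL1 RNA mainly for first or single genes, and SL2 RNA for downstream genes of operons. Across animals, snRNA genes are read from compact promoters whose proximal sequence element, a short stretch upstream of the start, is bound by the SNAP complex. In vertebrates a TATA box beside that element goes with RNA polymerase III, whereas most snRNA genes are read by RNA polymerase II. EYG-1 is a homeodomain protein named after Drosophila eyegone.

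The annotation names 18 genes sls-2 (SL2 RNA), 12 genes sls-1 (SL1 RNA), 10 genes smy (SmY RNAs, small RNAs found with trans-splicing proteins in worms) and sup-6 and sup-39, which are known from suppressor genetics as U1 snRNA genes. For the other genes it gives no RNA type, so all 129 were grouped by sequence. Genes whose sequences matched with at least 80% identity formed 28 groups, of which 18 held 1 gene. The largest held 23 genes and is called the R07E5.16 group here, after a member. Next were a group of 19 genes (C47F8.9) and one of 16 genes, which held 15 sls-2 genes and ZK1251.14. Smaller groups held 14 genes (sup-39 and sup-6), 12 genes (F07C6.5), the 12 sls-1 genes, 6 smy genes and 5 genes (T11F9.15). The sls-1, sls-2 and smy genes were each described together by their annotated name. The 16 genes with no such name and outside the groups named for a member, among them ZK1251.14, are called other. Copies were often exact: 14 genes of the R07E5.16 group had the same 102 bases, and 7 genes of the C47F8.9 group had the same 187 bases.

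Upstream windows of 100 bases were compared without regard to the ChIP regions. The word of 8 bases found upstream of the most snRNA genes was CGGAACCC, on the strand of the gene. It was held by 31 of the 129 genes, in 6 sequence groups, or 24.0% of snRNA genes, against 0.143% of the windows of all 46926 genes. The word found most often among those that did not overlap it was TGTCGGTA, held by 23 genes in 7 sequence groups, or 17.8%, against 0.104% of all windows. Neither word occurred on the other strand of any snRNA window. A looser word, GTCNGNACA, in which N stands for any base and which overlaps TGTCGGTA over 7 positions, was chosen after the windows of strongly bound genes had been seen. It was held by 44 snRNA genes, or 34.1%, against 0.283% of all windows, and by 1 snRNA window on the other strand. The word TATATAA, also chosen after the windows had been seen, was held by 18 snRNA genes, or 14.0%, against 2.43% of all windows, and 4 snRNA windows held it on the other strand.

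The windows below, from WBcel235, are those of 4 of the 6 genes with an optimal peak (W05B2.8, sup-6, sls-2.1 and sls-2.2) and of relatives of these that are not in the optimal list. F07C6.5 and Y57G11C.35 stand for 2 groups with no optimal peak, as their members with the highest pooled signal. Each is the 100 bases before the annotated start, and capitals mark CGGAACCC, TGTCGGTA, GTCNGNACA and TATATAA. They lie at chrIII:10989579-10989678 on the plus strand (W05B2.8), chrIII:5080899-5080998 on the minus strand (F54D8.7), chrIII:4426956-4427055 on the minus strand (C28A5.7), chrIII:4414085-4414184 on the plus strand (R07E5.16), chrII:12944968-12945067 on the minus strand (sup-6), chrII:6968559-6968658 on the minus strand (sup-39), chrII:5844765-5844864 on the plus strand (sls-2.1), chrII:5543498-5543597 on the plus strand (sls-2.2), chrII:5544274-5544373 on the minus strand (sls-2.3), chrIV:12795484-12795583 on the plus strand (F07C6.5) and chrIV:14765035-14765134 on the minus strand (Y57G11C.35).
W05B2.8: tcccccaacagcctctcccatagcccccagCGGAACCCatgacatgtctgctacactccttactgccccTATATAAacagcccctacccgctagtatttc
F54D8.7: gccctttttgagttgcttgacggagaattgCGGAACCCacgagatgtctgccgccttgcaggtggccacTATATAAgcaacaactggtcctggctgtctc
C28A5.7: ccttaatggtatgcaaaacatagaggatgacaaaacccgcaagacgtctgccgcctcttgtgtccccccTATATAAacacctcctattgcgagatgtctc
R07E5.16: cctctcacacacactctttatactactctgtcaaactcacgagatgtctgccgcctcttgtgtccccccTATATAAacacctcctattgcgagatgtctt
sup-6: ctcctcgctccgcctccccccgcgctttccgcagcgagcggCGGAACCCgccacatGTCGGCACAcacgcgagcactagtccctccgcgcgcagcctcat
sup-39: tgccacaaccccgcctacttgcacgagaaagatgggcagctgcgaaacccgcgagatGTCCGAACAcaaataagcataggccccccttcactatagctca
sls-2.1: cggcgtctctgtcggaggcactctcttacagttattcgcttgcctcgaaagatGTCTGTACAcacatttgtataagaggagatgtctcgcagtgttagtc
sls-2.2: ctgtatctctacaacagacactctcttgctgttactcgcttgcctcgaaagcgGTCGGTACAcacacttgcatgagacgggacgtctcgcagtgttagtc
sls-2.3: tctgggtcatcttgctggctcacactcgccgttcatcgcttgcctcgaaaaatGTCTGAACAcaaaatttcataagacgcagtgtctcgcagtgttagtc
F07C6.5: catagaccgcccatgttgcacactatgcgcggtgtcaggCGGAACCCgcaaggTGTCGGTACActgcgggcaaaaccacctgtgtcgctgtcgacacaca
Y57G11C.35: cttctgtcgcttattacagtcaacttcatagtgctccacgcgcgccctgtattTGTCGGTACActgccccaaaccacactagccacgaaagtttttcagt

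The words sat at nearly fixed distances from the annotated start. In genes of the sls-2 family CGGAACCC began 62 bases before the first base in all 5 holders, in the R07E5.16 group 70 bases before it in all 5 holders, and over all 31 holders between 74 and 56 bases before it. TGTCGGTA began 48 or 47 bases before the first base in all 23 holders. GTCNGNACA began between 50 and 43 bases before it in all 44 holders. TATATAA began 31 or 30 bases before the first base in all 15 holders of the R07E5.16 group, and only 3 genes outside that group held it.

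**Figure D1:**
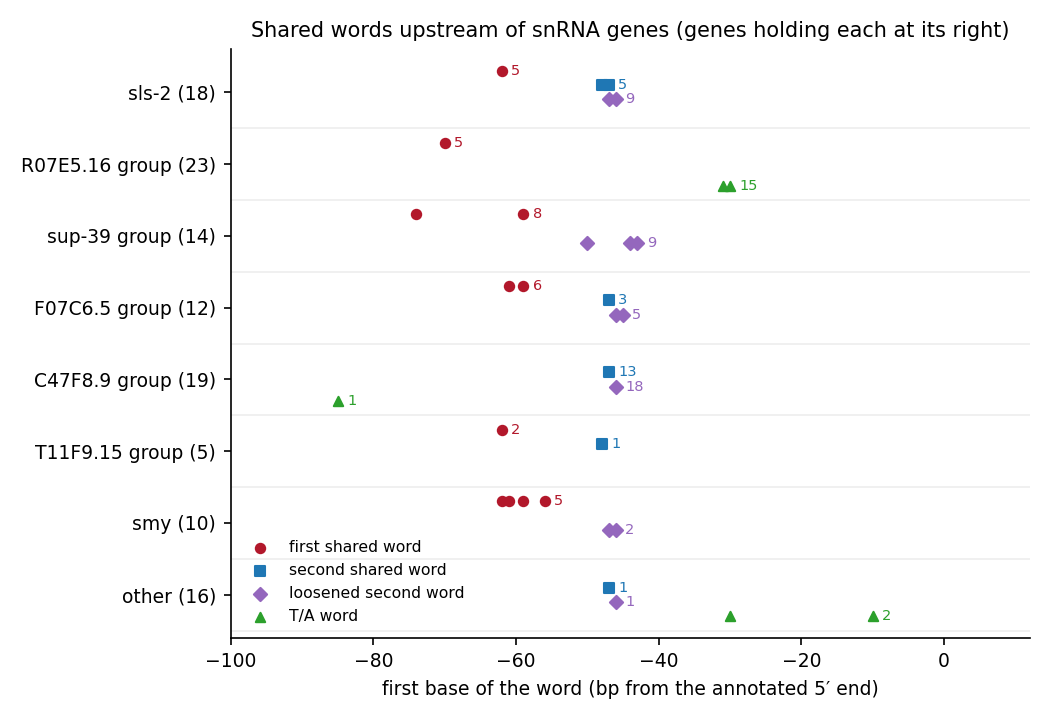
First base of each shared word (x axis, bp from the annotated 5′ end) for the snRNA families down the page, with the number of genes in brackets and the number that hold the word at the right of its marks. CGGAACCC is the first shared word, TGTCGGTA the second, GTCNGNACA the loosened second word and TATATAA the T/A word; the last is held by 15 of 23 genes of the R07E5.16 group and by no sls-2, smy or sup-39 group gene.

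The transcribed sequences of 2 bound SL2 RNA genes show the leader that they encode. In sls-2.1 (chrII:5844865-5844974, plus strand) and sls-2.2 (chrII:5543598-5543707, plus strand), capitals mark the first 22 bases, the spliced leader.
sls-2.1: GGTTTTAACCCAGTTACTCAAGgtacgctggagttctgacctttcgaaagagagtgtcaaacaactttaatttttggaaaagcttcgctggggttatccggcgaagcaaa
sls-2.2: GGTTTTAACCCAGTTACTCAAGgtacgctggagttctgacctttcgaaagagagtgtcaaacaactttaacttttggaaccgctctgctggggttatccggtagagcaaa

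Both sls-2 genes carry the same leader and differed at 8 of 110 positions, an identity of 92.7%. The letters ATTTTTG, close to the uridine-rich site at which Sm proteins bind snRNAs, were found in 72 snRNA genes. They occurred in all 19 genes of the C47F8.9 group, all 10 smy genes, all 5 genes of the T11F9.15 group, 11 of 12 of the F07C6.5 group, 13 of 14 of the sup-39 group and 13 of 18 sls-2 genes. They occurred in 0 of 23 genes of the R07E5.16 group and in 0 of 12 sls-1 genes. The match was exact: sls-2.10 and sls-2.5 lack ATTTTTG but hold AATTTTGG, with a shorter run of T. A gene without ATTTTTG may thus still hold a similar site, and other forms were not counted.

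EYG-1 regions were found at a minority of snRNA genes, and those of the optimal list were assigned to 4 SL2 RNA genes and to 1 gene each of the R07E5.16 and sup-39 groups. The optimal list holds the peaks that passed the authors' threshold on the irreproducible discovery rate (IDR), a measure of how well the order of regions repeats in another replicate. It had a summit within 300 bp of 6 of the 129 snRNA genes, or 4.65%, against 1.73% of all annotated genes, 15.3% of snoRNA genes (53 of 346) and 17.5% of tRNA genes (111 of 634). The pooled list holds regions called on both libraries together, background regions included, and had a summit at 48 snRNA genes, or 37.2%, against 30.2% of all genes, 43.1% of snoRNA genes and 60.9% of tRNA genes. Both replicate lists had a summit at 28 snRNA genes, or 21.7%, against 19.2% of all genes, 28.6% of snoRNA genes and 46.8% of tRNA genes. The snRNA share in the pooled list and in both replicate lists was thus near that of all genes. Among protein-coding genes the share was 1.97% in the optimal list, 46.8% in the pooled list and 33.8% in both replicate lists. For these shares protein-coding genes were searched over their full length. Within 300 bp of the annotated 5′ end alone, the protein-coding shares were 0.966%, 19.7% and 8.19%, in the same order of lists. The snRNA share was thus above the full-length share only in the optimal list, but above the 5′ end share in each list. These are counts over genes and were not tested. Genes of different lengths offer different windows: the median was 109 bp for snRNA genes and 195.5 bp for all genes.

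**Figure D2:**
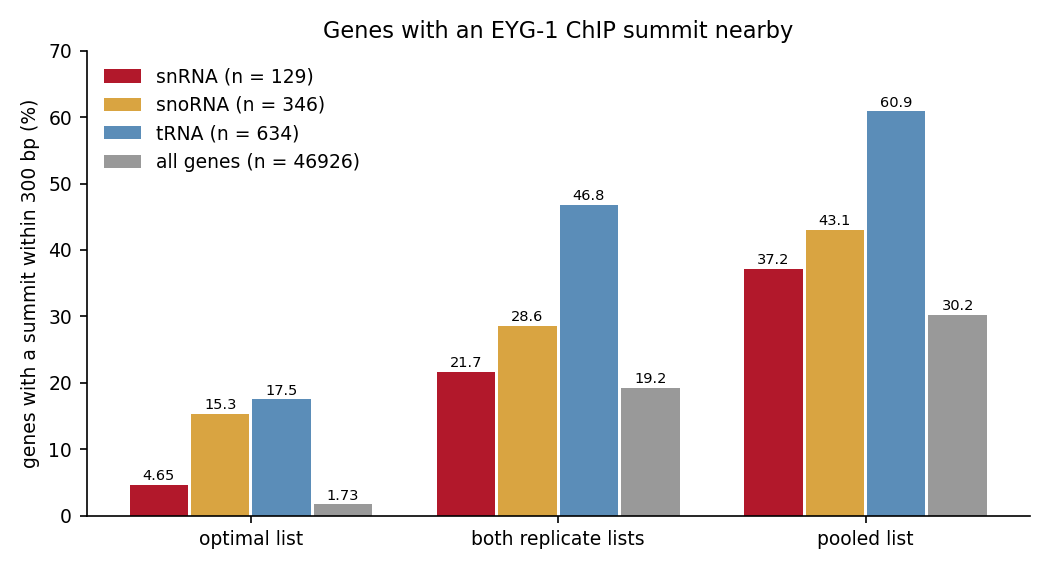
Percent of genes with a summit within 300 bp (y axis) in the optimal list, in both replicate lists and in the pooled list, for snRNA, snoRNA, tRNA and all annotated genes. snRNA genes stand at 4.65% in the optimal list, above all genes at 1.73% and below snoRNA and tRNA genes.

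No list had a region at 67 of the 129 snRNA genes, and 62 had one in at least 1 list. The 48 genes with a pooled summit had 54 distinct pooled regions, of which 6, or 11.1%, had an optimal summit within 100 bp, against 508 of all 24215 pooled regions, or 2.1%. At these 48 genes the best pooled signal, the height given by the authors' peak caller, had a median of 22.1 and lay at a median rank percentile of 70.8 in the pooled list. The same percentile was 91.6 at snoRNA genes, 94.5 at tRNA genes and 63.6 over all genes with a pooled summit. The signal has no unit beyond the caller's and is used here only to rank and describe regions within a list. The depth of the libraries is unknown, since no read counts were used.

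The SL2 RNA genes held 4 of the 6 genes with an optimal peak. Of the 18 sls-2 genes, 4 had an optimal summit, 10 a pooled summit and 9 a summit in both replicate lists. At sls-2.4 (chromosome I, 4172206 to 4172315, plus strand) the optimal peak had a signal of 174 and rank 36. Its best signal was 83.2 in the replicate 1 list and 67.6 in the replicate 3 list, and 150.2 in the pooled list. The replicate ranks were 21 and 130, so that the gene was strong in both. A replicate list cut to as many of its strongest regions as the optimal list holds is called its top set here, and sls-2.4 was in both top sets.

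sls-2.1 had an optimal signal of 108 at rank 162. Its best signal was 48.1 in the replicate 1 list, 51.3 in the replicate 3 list and 96.9 in the pooled list. sls-2.2 had an optimal signal of 92.1 at rank 253, with 39.9 in the replicate 1 list, 43.2 in the replicate 3 list and 80.7 in the pooled list. sls-2.9 (chromosome I, 13297877 to 13297985, plus strand) had the lowest optimal signal of the 4 genes, 79.9 at rank 378, with 33.5 in the replicate 1 list, 45.8 in the replicate 3 list and 79.5 in the pooled list. All 4 genes were in the top sets of both replicates.

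The peak assigned to sls-2.9 lay over another gene. Its optimal summit was 139 bp upstream of sls-2.9 and inside the tRNA gene M01E5.t1, over which the ncRNA gene M01E5.8 is annotated on the other strand. sls-2.9 and smy-1 were the only snRNA genes with a tRNA, snoRNA or miRNA gene within 300 bp. Without them 5 snRNA genes had an optimal summit. The optimal summits at sls-2.4 and sls-2.2 lay inside the snRNA gene, 16 and 96 bp from its first base, and that at sls-2.1 lay 55 bp upstream. For sls-2.2 and sls-2.1 the position depended on the list. The best summit of sls-2.2 was 57 bp upstream in the replicate 1 list and 106 bp past the first base in the replicate 3 list. That of sls-2.1 was 53 bp upstream in the replicate 1 list and 60 bp past the first base in the replicate 3 and pooled lists. Both sls-2.4 and sls-2.2 have an ncRNA gene annotated over them on the other strand (R12E2.18 and C17C3.23).

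The other sls-2 genes were weaker or had no region. sls-2.8 had a pooled signal of 48.6, with 29.9 in the replicate 1 list and 18.8 in the replicate 3 list. sls-2.3, which differs from sls-2.2 at 3 of 110 positions, faces it on the opposite strand. Its best pooled region, with a signal of 31.4, was the weaker of 2 regions also assigned to sls-2.2, and lay 264 bp beyond the 3′ end of sls-2.3. The other 4 sls-2 genes with a pooled region had signals between 16.1 and 22.6.

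In the R07E5.16 group 1 gene, W05B2.8, had optimal peaks. It carried the highest signal of all snRNA genes in the optimal, pooled and replicate 3 lists, whereas sls-2.4 was higher in the replicate 1 list, at 83.2. The stronger optimal peak of W05B2.8 had a signal of 192 at rank 22, with the summit 27 bp past the first base. Another peak of signal 110.1 had its summit 226 bp past the first base. The best signal was 60.7 in the replicate 1 list (rank 83), 135 in the replicate 3 list (rank 19) and 198 in the pooled list (rank 19). W05B2.8 lies within the protein-coding gene dhc-4. No other annotated gene but these 2 lay within 300 bp of the best pooled summit.

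F54D8.7 and C28A5.7 came next in the group and had no optimal summit. F54D8.7, whose sequence differs from that of W05B2.8 by 1 base, had a best signal of 18.4 in the replicate 1 list and 48.8 in the replicate 3 list, and 70.3 in the pooled list. C28A5.7 had 18.5 in the replicate 1 list, 41.4 in the replicate 3 list and 64.0 in the pooled list. Both were in the top set of replicate 3, at ranks 271 and 404, but not in that of replicate 1, at ranks 2014 and 1980. Both had a higher pooled signal than sup-6, which was in the optimal list.

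Exact copies of 1 gene differed widely in their regions. Of the 14 genes with the 102 bases of W05B2.8, 8 had a pooled summit, with best signals between 14.1 and 198, and 1 had an optimal summit. Y9C9A.111 had a pooled signal of 40.22 and R07E5.16 one of 33.4. The 6 copies at K09B11 on chromosome IV had no pooled summit, and TATATAA stood upstream of all 6. Over the whole R07E5.16 group, 8 of 15 genes with TATATAA had a pooled summit, against 3 of 8 without it, which was not tested. C28A5.7 and R07E5.16 had the same gene sequence and 75% identity over the 100 bases upstream, and W05B2.8 and C28A5.7 had 55%. CGGAACCC was upstream of 5 genes of the group, all of which had a pooled summit, against 6 of 18 genes without it. In both replicate lists it was 3 of 5 against 4 of 18. The pooled signals of the 5 genes with CGGAACCC were 198, 70.3, 17.7 (Y17G9A.85), 16.97 (Y17G9A.90) and 14.1 (T08B6.62). The last 3 were below the median of the list, 18.2, and T08B6.62 had no summit within 300 bp in either replicate list.

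**Figure D3:**
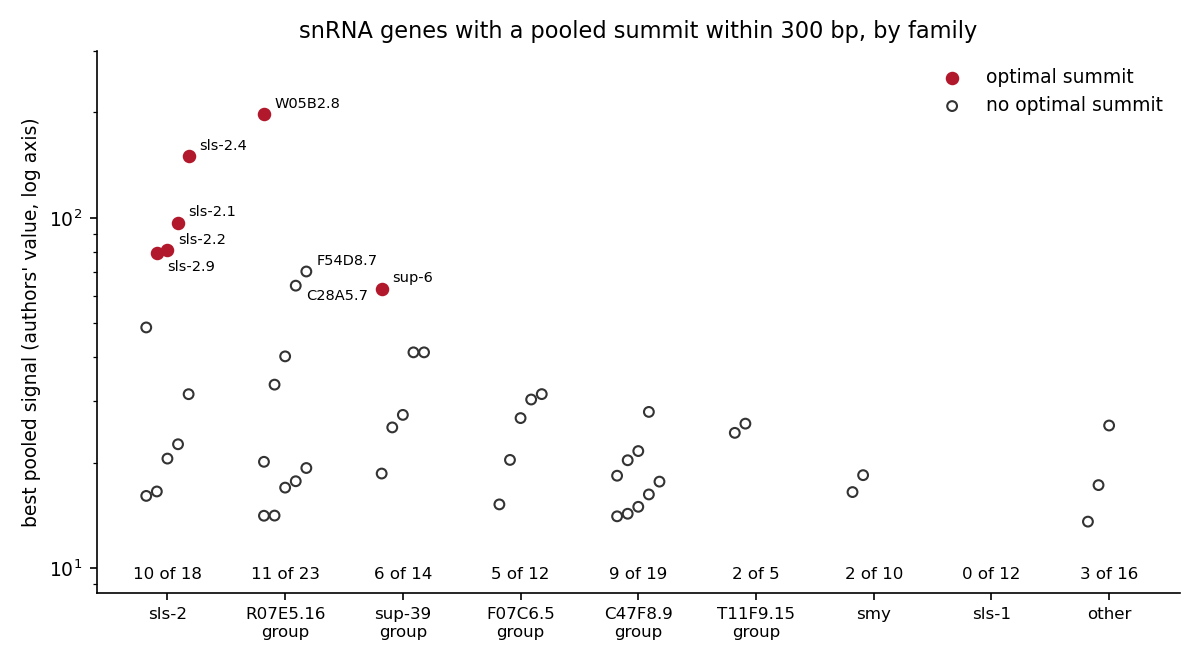
Best pooled signal (authors' value, log axis) of each snRNA gene with a pooled summit within 300 bp, by family. Filled points have an optimal summit, and the numbers along the bottom give the genes with a pooled summit out of all genes of the family, from 10 of 18 in sls-2 to 0 of 12 in sls-1.

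In the sup-39 group, sup-6 had an optimal peak and sup-39 did not. The optimal peak of sup-6 had a signal of 101 at rank 201, with its summit 11 bp upstream of the first base. sup-6 lies within the protein-coding gene F58G1.7, and the ncRNA genes F58G1.11 and F58G1.12 lay 6 and 7 bp from its pooled summit, nearer than sup-6 at 11 bp. The best signal of sup-6 was 39.96 in the replicate 1 list (rank 265), 20.8 in the replicate 3 list (rank 2323) and 62.8 in the pooled list. It was the only snRNA gene in the top set of replicate 1 and not in that of replicate 3. sup-39, identical to sup-6 over 97.0% of 165 bases, had 26.6 in the replicate 1 list, 16.4 in the replicate 3 list and 41.3 in the pooled list. The gene mir-1831, annotated as an snRNA of 22 bases inside sup-39, shared that region. Of the 14 genes of the group 6 had a pooled summit and 5 a summit in both replicate lists.

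The remaining families had no optimal summit. In the F07C6.5 group 5 of 12 genes had a pooled summit, with F07C6.5 itself highest at 31.4, a region seen at 26.3 in the replicate 3 list and not within 300 bp in the replicate 1 list. In the C47F8.9 group it was 9 of 19 genes, and the highest, Y57G11C.35, had 14.3 in the replicate 1 list, 12.3 in the replicate 3 list and 27.9 in the pooled list. In the T11F9.15 group 2 of 5 genes had a pooled summit, the higher being C52E4.8 at 25.8. Of the 10 smy genes 2 had one, smy-8 at 18.4 and smy-10 at 16.5. Among the 16 other genes 3 had one, M163.13 at 25.5, F35B3.10 at 17.3 and F35C11.9 at 13.6, and 0 of these was in both replicate lists. smy-1 lay just outside the limit, with its nearest pooled summit at 307 bp, and sls-2.3 just inside it, at 264 bp. For the optimal list the gene nearest to the limit inside was sls-2.9 at 139 bp, and outside it sls-2.3 at 470.0 bp.

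None of the 12 sls-1 genes had a region in any list. Their surroundings were repeated: of the 36-base words within 300 bp of an sls-1 gene, a median of 0% occurred once in the genome, with a highest value of 21.7%. Over all snRNA genes the median was 86.5%. Among the 18 snRNA genes with under 50% unique words, 1 had a pooled summit, against 47 of 111 genes at or above 50%. All 12 sls-1 genes are among the 18, so this count largely repeats their lack of regions. The 6 optimal genes had a median of 92.1%, and the 6 copies at K09B11 lay between 54.7% and 64.0%. Reads from repeats cannot be placed at 1 site, and the part of this in the lack of regions was not tested. Absence from the lists is not a measure of absence of the protein.

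The share of snRNA genes with a pooled summit varied by chromosome. On chromosome III 11 of 13 snRNA genes had a pooled summit, or 84.6%, against 52.4% of all genes there. On chromosome II it was 11 of 16, or 68.8%, against 42.1%. On chromosome IV it was 12 of 41, or 29.3%, against 15.7%, and on chromosome I 7 of 16, or 43.8%, against 50.3%. On chromosome X it was 2 of 3, or 66.7%, against 38.5%. On chromosome V it was 5 of 40, or 12.5%, against 30.9% of all genes, and 12 of the 40 were sls-1 genes. Chromosome IV holds 19704 of the 46926 annotated genes, more than any other, and had the lowest share of all genes with a pooled summit. The 6 optimal genes were on chromosomes I, II and III, where 3.14%, 2.49% and 3.14% of all genes had an optimal summit. No snRNA gene on chromosome IV, V or X had one, against 0.538%, 1.41% and 3.5% of all genes there. With so few snRNA genes on each chromosome, these counts do not show a difference between chromosomes, and none was tested.

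Summits were spread around the snRNA genes. The best pooled summit lay at a median of 41 bp past the annotated first base, with quartiles at -70.75 and 181.75 bp. It was upstream of the gene at 18 of the 48 genes, inside it at 14 and past its 3′ end at 16. It lay within 100 bp of the gene at 30 of the 48, or 62.5%, against 68.3% over all genes with a pooled summit, 70.5% at snoRNA genes and 82.6% at tRNA genes. A summit inside a gene counted as within 100 bp, as it did at 7346 of all 14189 genes with a pooled summit. Long genes offer more room for this, so the shares do not compare closeness alone. Among the 15 snRNA genes with the highest pooled signal, 12 had the best summit within 100 bp, and among the other 33 it was 18.

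**Figure D4:**
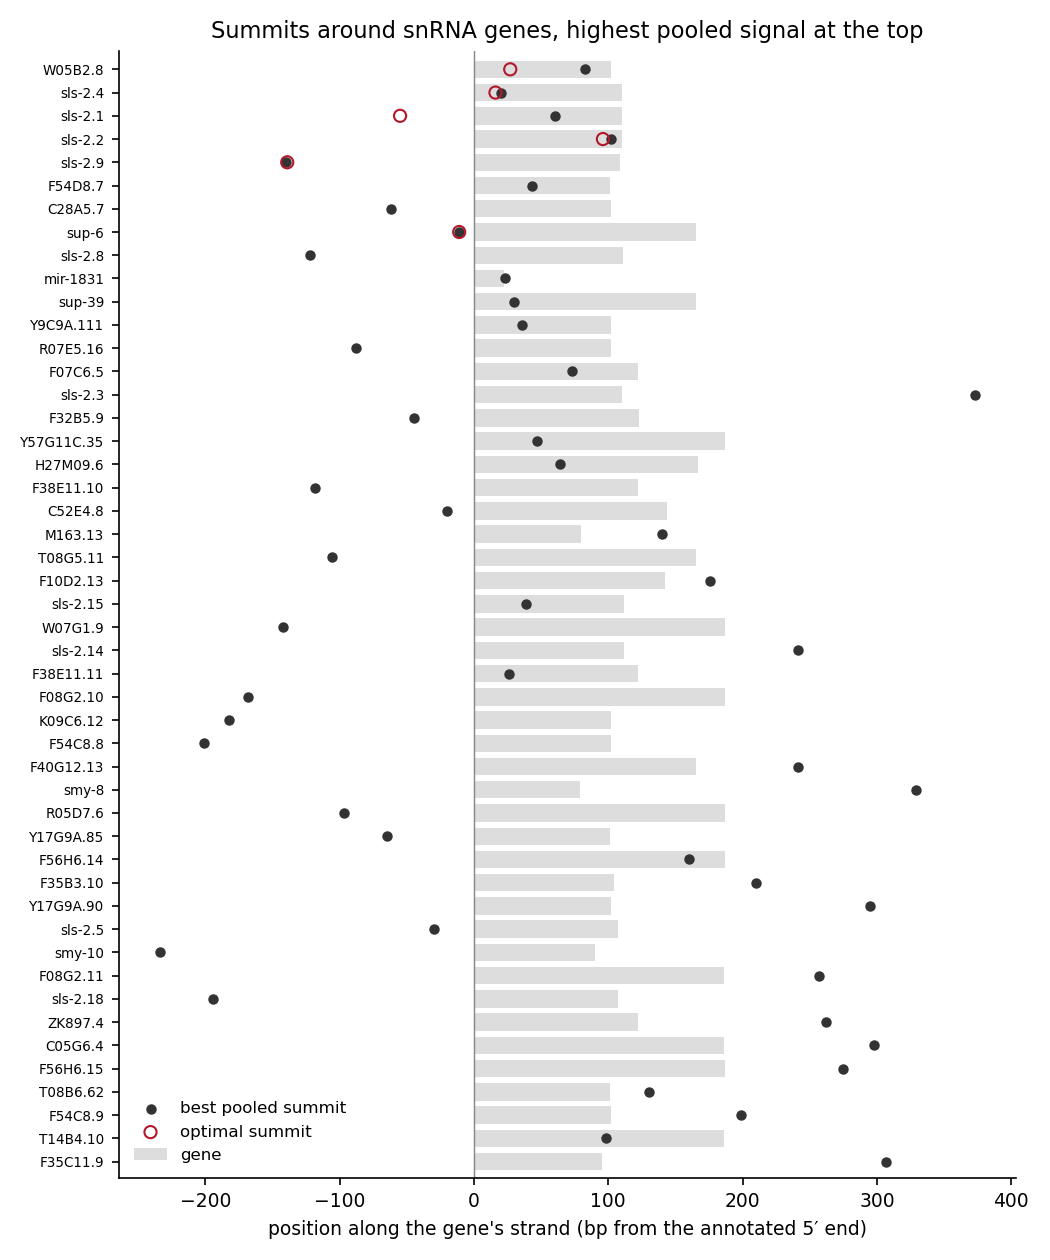
Position of the best pooled summit and of the best optimal summit along the strand of each of the 48 snRNA genes with a pooled summit (x axis, bp from the annotated 5′ end; grey bars show the gene), in order of pooled signal from the top. Summits of the strongest genes lie mostly on or beside the gene, 12 of 15 within 100 bp, and those lower down are spread over the window.

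The replicates gave a similar set of strong genes and a looser order below them. In the top sets, replicate 1 had a summit at 6 snRNA genes, or 4.65%, against 1.71% of all genes, and replicate 3 at 7 snRNA genes, or 5.43%, against 1.8% of all genes. W05B2.8, sls-2.1, sls-2.2, sls-2.4 and sls-2.9 were in both sets. Over the 28 genes in both replicate lists Spearman's rho of the best signal was 0.62, a description across genes that share regions and libraries. The best summits of the 2 replicates lay within 100 bp of each other at 14 of these genes and further apart at 14. By rank percentile within its own list, replicate 1 was higher at 7 of 9 sls-2 genes and replicate 3 at 6 of 7 genes of the R07E5.16 group. The replicate 3 list was shorter than that of replicate 1, 24519 against 27360 regions, and these orders were not tested.

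**Figure D5:**
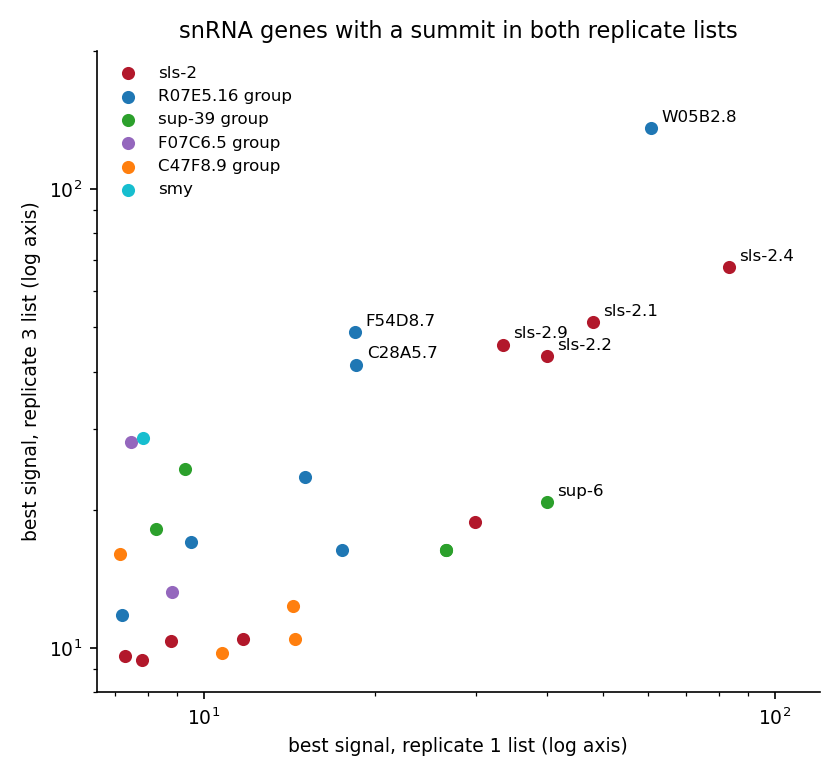
Best signal in the replicate 1 list (x axis, log) and in the replicate 3 list (y axis, log) for the 28 snRNA genes with a summit within 300 bp in both, coloured by family. W05B2.8 and 4 sls-2 genes are high in both, F54D8.7 and C28A5.7 are high in replicate 3 and sup-6 is high in replicate 1.

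The share of genes with a region was compared between genes with and without an upstream word, as counts that were not tested. Of the 50 genes with CGGAACCC or TGTCGGTA, 23 had a pooled summit, or 46.0%, and 4 an optimal summit. Of the 79 genes without either, 25 had a pooled summit, or 31.6%, and 2 an optimal summit. In both replicate lists it was 12 of 50 holders, or 24.0%, and 16 of 79 others, or 20.3%. The others included all 12 sls-1 genes, and without these the share in the pooled list was 25 of 67, or 37.3%, and that in both replicate lists 16 of 67, or 23.9%. The direction was not the same in every family. Pooled summits were found at 5 of 10 holders and 5 of 8 others among sls-2 genes, 2 of 8 and 4 of 6 in the sup-39 group, and 0 of 5 and 2 of 5 among smy genes. They were found at 5 of 5 holders and 6 of 18 others in the R07E5.16 group, 7 of 13 and 2 of 6 in the C47F8.9 group, 3 of 6 and 2 of 6 in the F07C6.5 group, and 1 of 2 and 1 of 3 in the T11F9.15 group. A shared region was counted at each of its genes. sup-39 and mir-1831, both without the words, had the same pooled region. The pooled region of sls-2.3 was also assigned to sls-2.2, and neither gene held a word. Of the 44 genes with GTCNGNACA, 24 had a pooled summit, or 54.5%, and 5 an optimal summit, against 24 of 85 others, or 28.2%, with 1 optimal summit. GTCNGNACA was read off strongly bound genes that are counted here, so its shares support nothing. Holders and others had median unique words of 84.0% and 86.8% for GTCNGNACA. For CGGAACCC or TGTCGGTA these were 88.9% and 84.2%, and 86.5% for the others without the sls-1 genes. Of the 20 snoRNA genes with CGGAACCC upstream 10 had a pooled summit and 1 an optimal summit, against 43.1% and 15.3% of all snoRNA genes. No tRNA gene had either word on its own strand. Among other holders of either word, pooled summits lay at 4 of 10 ncRNA, 2 of 14 piRNA and 2 of 13 protein-coding genes. They lay at 0 of 3 pseudogenes and 0 of 2 miRNA genes.

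The protein-coding genes that make and use snRNAs were also searched for regions at their own starts. A list of 61 genes held subunits of the SNAP complex (snpc), the Integrator complex, which cleaves snRNA precursors (ints), Sm and Sm-like proteins (snr, lsm), and snRNP and splicing proteins, and 56 matched the annotation. Of these, 0 had an optimal summit within 300 bp of the annotated 5′ end, against 0.966% of all 19985 protein-coding genes. With so low a share over all genes, 0 of 56 does not set this list apart. A pooled summit lay at 23 of 56, or 41.1%, against 19.7%, and a summit in both replicate lists at 8 of 56, or 14.3%, against 8.19%. The highest pooled signals, named after their values were seen, were 53.9 at ints-8, 50.5 at ints-4 and 41.4 at lsm-7, at ranks 738, 854 and 1303 of 24215. sna-1 and sna-2, whose proteins are found with SL and SmY RNAs in worms, had 23.9 and 28.8. snpc-4, which encodes the largest SNAP complex subunit, had no summit in any list. Many annotated 5′ ends of worm messenger RNAs are trans-splice sites, so these are distances to the annotated end.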

How the data were processed

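Regions came from 4 lists in the ce11 build, which is WBcel235: the list of each replicate, the pooled list and the optimal IDR list, with 27360, 24519, 24215 and 519 regions. Per the notes deposited with the libraries, replicate and pooled lists hold peaks and background regions called against a control. The aligner, peak caller and their versions are not given in the sources used here. Region height is the signal value deposited by the authors. The deposited score column of these lists, apart from the optimal one, was taken to hold −log10 q-values, which is what the file format defines. No read counts were used, so depth is unknown and no counting interval was computed. Lists in ce10 were not used here.

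Genes came from the Ensembl annotation, release 115, and symbols from RefSeq, which matched all 129 snRNA genes. Ensembl gives 44 of them a name shared with another. Summit positions were counted along the gene's strand, with 0 for the first base. A gene's best region is the one with the highest signal. Sequences are from the RefSeq copy of WBcel235. Genes were grouped by edlib 1.3.9.post1, aligning the shorter within the longer, with single linkage. Words of 8 bases were counted in 100 bp upstream, and a site counted as unique when its 36-base word occurred once over both strands. Python 3.11.15, numpy 2.4.6 and pandas 2.3.3 were used, and the counting was tested on simulated summits. Named are all genes with an optimal summit, the 15 with the highest pooled signal, those in the top set (as many of the strongest regions as the optimal list holds) of only 1 replicate, the best of each sequence group with a pooled summit and those beside the 300 bp limit. Members, lists and words were chosen with earlier results of these data known. With 1 group of 2 libraries, no p-values were computed.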

Additional observations from a re-analysis of the deposited data

How the results depend on the processing

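The counts of optimal genes and of optimal loci, 6 each, were 5 with a limit of 100 bp, with the stronger peaks of the optimal list alone and without genes beside a tRNA, snoRNA or miRNA gene. They were 6 with any overlap of region and gene, and 6 to 7 when 1 replicate's strongest regions replaced the optimal list. The 48 pooled genes became 31 within 100 bp and 11 at a q-value of at most 0.01, and 43 to 45 in single replicate lists. The 28 genes in both replicate lists became 15 within 100 bp and 0 at that q-value, since no region of replicate 3 reached it. The median position of the best pooled summit, 41 bp, became 23 bp at that q-value, 47 bp within 100 bp and 22 to 30 bp in single replicate lists. The median percentile, 70.8, became 81.9 within 100 bp, 68.8 counting each region once and 76.4 to 77.8 in single replicate lists. Of 33 alternatives, 12 moved a value in this way. Word holders with a pooled summit were 23 with a 200 bp window too and, in an alternative chosen after seeing the data, 24 with GTCNGNACA. No paired analysis was possible because there was only 1 group. Depth is unknown and limits every statement on missing regions.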
